A study of Mus musculus with 21 samples.

Results

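The comparison described here sets intestinal Lgr5 cells of mice labelled as vitamin D receptor knockouts (AIN_VdrKO, 3 libraries) against Lgr5 cells of mice with no such label (AIN, 3 libraries). These are 6 of the 21 libraries of a study of diet and intestinal stem cells. All genes of the count table except the ERCC spike-in rows were taken, and 16050 of its 37310 genes had enough counts to be tested. Both groups were 3-month-old Lgr5EGFPcre-ERT2 mice, which carry EGFP and a tamoxifen-inducible Cre at the Lgr5 gene, and both ate the purified diet AIN76A from weaning. They differ in the Vdr genotype given in the labels. They also differ in sex, since the 3 AIN_VdrKO mice were male, while AIN 1 and AIN 2 were female and AIN 3 male. A further group of 3 libraries used here, AINlowVitD, came from mice without the knockout label whose AIN diet had its vitamin D set to 0.11 IU/g. The labels do not say which part of Vdr was removed, in which cells, or from which line the knockout came, and the group names below are the labels' names. From dispersed crypts the cells with the strongest EGFP signal were sorted and pooled for RNA, so each library is a bulk measurement of a sort gate.

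The vitamin D receptor is a nuclear receptor. Bound to the hormonal form of vitamin D, it pairs with the retinoid X receptor on DNA and recruits coactivators, while corepressors hold it in check without ligand. In the intestine it is best known for switching on calcium uptake genes, namely the channel Trpv6, the carrier protein S100g (calbindin) and the export pump Atp2b1, and the enzyme Cyp24a1 that degrades the hormone. Lgr5 cells at the crypt base are the stem cells that renew the epithelium, and they sit between Paneth cells, which secrete antimicrobial peptides.

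Counts assigned to genes were 22562419 to 115435120 in the AIN_VdrKO libraries and 42664400 to 88931614 in the AIN libraries. The 21 libraries of the study separated on the first principal component, which held 43.9% of the variance, and the AIN_VdrKO libraries did not overlap with AIN on it. AIN_VdrKO 1, 2 and 3 lay at 43.8, 3.8 and -21.9 on this component, against -38.6, -40.2 and -97.6 for AIN 1, 2 and 3. The AINlowVitD, NWD1Ca and NWD1VitD libraries lay between 71.2 and 79.2, and the NWD1 and NWD2 libraries lay with AIN, all 9 between -104.3 and -38.6. The share of counts from mitochondrial ribosomal RNA was 1.38% to 2.8% in AIN_VdrKO, 2.95% to 3.85% in AINlowVitD and 0.234% to 0.901% in AIN. The ERCC spike-ins, synthetic RNAs that no mouse makes, differed in relative abundance in 7 of 78 between AIN_VdrKO and AIN (8.97%, edgeR quasi-likelihood test) and in 38 of 78 between AIN_VdrKO and AINlowVitD (48.7%). Only 12 spike-in counts were found in AIN 2, so the spike-in test used the other AIN libraries. Sex was a term of the fit over all 21 libraries. Genotype and this separation of the libraries cannot be told apart in AIN_VdrKO against AIN, so values of AINlowVitD are given beside the main results. AINlowVitD itself differed from AIN in 31.3% of the tested genes and in 54 of 78 spike-ins (69.2%).

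Between the libraries labelled AIN_VdrKO and AIN, 2011 genes passed an adjusted p of 0.05 in edgeR's quasi-likelihood test, or 12.5% of the genes tested. Of these, 1194 were higher in AIN_VdrKO (7.44%) and 817 lower (5.09%), and 1699 differed by more than 2-fold. The median log2 fold change of all tested genes was -0.01. On deposited TPM values, limma called 642 genes higher and 708 lower, and the median of all genes moved by -0.23 on that scale. With a gene length offset in edgeR 1139 were higher and 1150 lower, and with upper-quartile scaling 1277 were higher and 857 lower. Without AIN 3, 992 genes passed (685 higher and 307 lower), and without AIN 2, 2654 did. A list of genes is read below against these background shares.

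**Figure D1:**
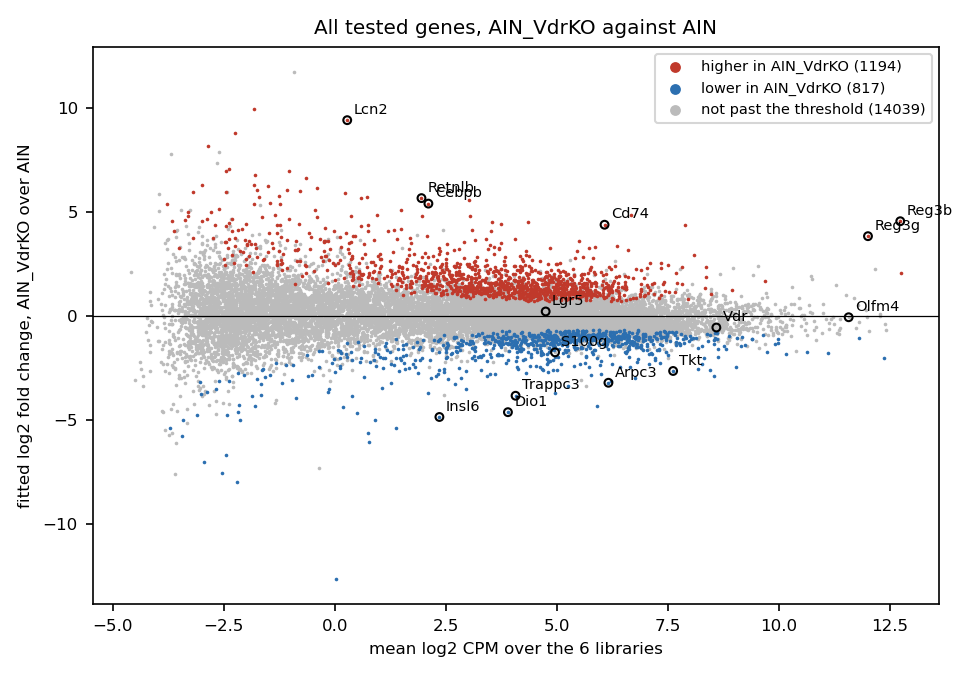
Each point is 1 of the 16050 tested genes, with its mean log2 CPM over the 6 libraries on the horizontal axis and its fitted log2 fold change, AIN_VdrKO over AIN, on the vertical axis. Red points (1194) were higher and blue points (817) lower in AIN_VdrKO at an adjusted p under 0.05, grey points did not pass, and circled genes are named in the text; Reg3b and Reg3g lie far to the right and above 0, while Vdr, Lgr5 and Olfm4 lie near 0.

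The targeted gene was not lower past the threshold. Vdr (ENSMUSG00000022479.9) had 297, 481.5 and 246.6 CPM in AIN_VdrKO 1, 2 and 3 and 338.2, 373.2 and 746.4 CPM in AIN 1, 2 and 3. AIN 3 was the highest of the 6 libraries, and the groups overlapped. The log2 fold change was -0.56 ± 0.37 (SE, adjusted p = 0.348), and it was 0.13 without AIN 3. Against AINlowVitD, with 249.9, 273.2 and 154.5 CPM, Vdr in AIN_VdrKO differed by 0.52 on the log2 scale (adjusted p = 0.469). AINlowVitD, which lacks the knockout label, was itself below AIN in Vdr by 1.08 ± 0.36 on the log2 scale (adjusted p = 0.0278). A count over the whole gene does not test a knockout that removes part of the coding sequence and leaves a transcript, so these counts neither bear out the label nor go against it.

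Along chromosome 15, genes next to Vdr were not changed as a block. Of the 10 tested genes on either side of it, 4 passed the threshold (20%, against 12.5% of all genes), and the median log2 fold change of these 20 was -0.16. Scaf11, which encodes a splicing-associated factor, rose by 1.58 ± 0.29 and Col2a1, a cartilage collagen, by 4.36 ± 0.80. Col2a1 had 11, 9 and 37 counts in AIN_VdrKO and 1, 0 and 2 counts in AIN, so its fold change rests on few reads. The amino acid transporter Slc38a4 fell by 1.75 ± 0.54 on the log2 scale and the glycolytic enzyme Pfkm by 1.35 ± 0.42. These 4 were chosen after their values were seen. In AINlowVitD, Scaf11 differed from AIN by 1.31 (adjusted p = 0.0013), Col2a1 by 6.10 (adjusted p = 3.68e-05) and Pfkm by -1.09 (adjusted p = 0.0473). Slc38a4 differed there by -1.28 and did not pass (adjusted p = 0.0554). None of the 4 passed between AIN_VdrKO and AINlowVitD. Over the whole of chromosome 15, 85 of 567 tested genes passed, or 15%.

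**Figure D2:**
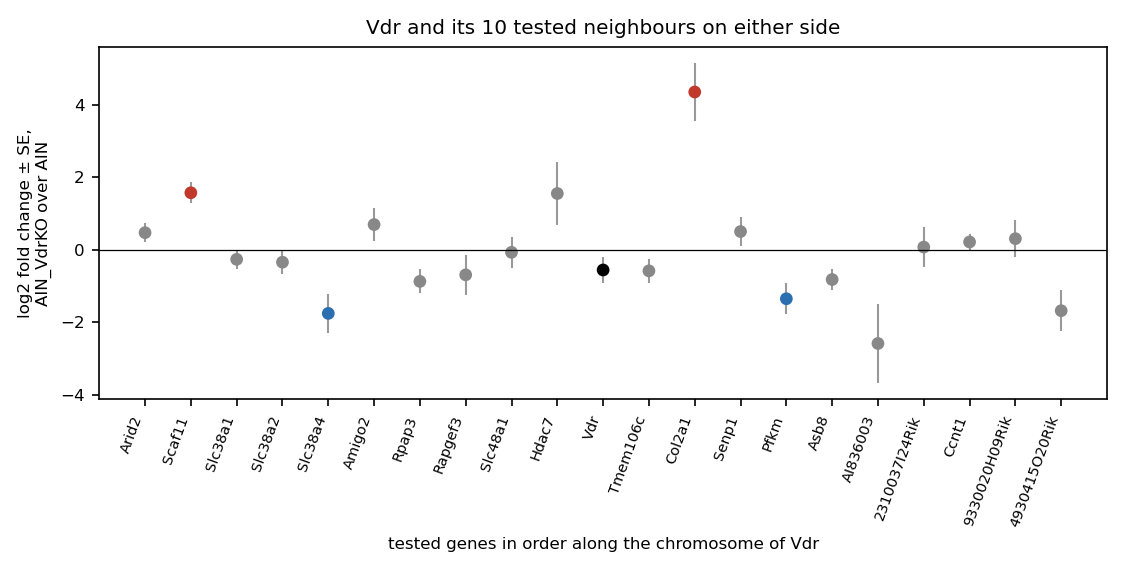
Fitted log2 fold change, AIN_VdrKO over AIN, with SE bars, for Vdr (black) and the 10 tested genes on either side of it in chromosome order. Col2a1 and Scaf11 (red) were higher and Slc38a4 and Pfkm (blue) lower past the threshold, and the grey genes did not pass.

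The classical calcium targets S100g, Trpv6 and Atp2b1 did not pass the threshold between AIN_VdrKO and AIN. The calcium carrier S100g had 46, 9.48 and 4.44 CPM in AIN_VdrKO, 1491, 488.8 and 441.5 CPM in AINlowVitD and 101.5, 106 and 43.2 CPM in AIN. AIN_VdrKO 2 and 3 were below the other libraries of these 3 groups, while AIN_VdrKO 1 lay just above AIN 3. The difference from AIN was -1.75 ± 0.96 and did not pass (adjusted p = 0.253), whereas that from AINlowVitD was -5.03 and passed (adjusted p = 0.0128). Trpv6 had 0 counts in every AIN_VdrKO library and 2, 2 and 0 in AIN, so a difference was not detectable at this depth. Cyp24a1 had 0, 0 and 5 counts in AIN_VdrKO and 0 in each AIN library and was not tested.

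The other calcium genes did not pass either. The export pump Atp2b1 had 102.2, 129.5 and 102.4 CPM in AIN_VdrKO and 69.4, 87.7 and 72.6 CPM in AIN, with no overlap but an adjusted p of 0.12 (log2 fold change 0.65). Cldn2, a claudin that lets cations pass between cells, differed by -0.65 (adjusted p = 0.274), and the manganese exporter Slc30a10 by -0.55 (adjusted p = 0.711). Of 29 tested members of the list of receptor targets and calcium transport genes, 3 rose and 2 fell, and their median was -0.56. Cd14, a coreceptor for bacterial lipopolysaccharide, and the metallothioneins Mt1 and Mt2 rose. The sugar phosphate transporter Slc37a2 fell by 3.69 ± 1.06 on the log2 scale and the drug efflux pump Abcb1a, chosen after its values were seen, by 1.62 ± 0.51. Without AIN 3 or without AIN_VdrKO 3, neither of these falls passed. The Slc37a2 call was also lost without AIN_VdrKO 1, without AIN_VdrKO 2 and with limma on TPM, and it held in 11 of 18 other settings.

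Among partners and cofactors of the receptor, 7 of 19 tested genes rose and 1 fell, a share of 42.1% against 12.5% of all genes, with a median of 0.15. With limma on TPM the counts were 2 and 1 and the median -0.10, and without AIN_VdrKO 2, 5 members passed. The corepressor Ncor1 had 231.9, 264.7 and 210.5 CPM in AIN_VdrKO, 246.8, 239 and 191.3 CPM in AINlowVitD and 86.96, 73.16 and 99.01 CPM in AIN. All AIN_VdrKO libraries exceeded all AIN libraries, and they overlapped with AINlowVitD. Its log2 fold change over AIN was 1.52 ± 0.25 (adjusted p = 0.000694), and over AINlowVitD it was 0.15 (adjusted p = 0.774). The chromatin factor Baz1b, the Mediator subunit Med14, the coregulator Nrip1 and the coactivators Crebbp and Ncoa1 rose by 0.91 to 1.27, and these 5 were chosen after their values were seen. Pdia3, a protein disulfide isomerase of the endoplasmic reticulum also described as a membrane receptor for the hormone, fell to 141.4, 147.9 and 145.2 CPM in AIN_VdrKO, against 654.7, 1321 and 677.4 CPM in AIN, a log2 fold change of -2.60 ± 0.35 (adjusted p = 0.000146). AINlowVitD held 104.6, 106.5 and 180.6 CPM, around the AIN_VdrKO levels.

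Several antimicrobial and acute phase genes rose in the libraries labelled AIN_VdrKO. Of 19 tested members 8 rose and none fell (42.1%), with a median of 1.74. Lcn2, lipocalin 2, which binds the iron carriers of bacteria, had 37.88, 6.87 and 41.65 CPM in AIN_VdrKO, 0.064, 0 and 0.064 CPM in AINlowVitD and 0, 0 and 0.129 CPM in AIN. Its pooled counts were 6953 in AIN_VdrKO and 6 in AIN, a scaled ratio of 1180 (95% counting interval 541 to 3210, exact). The fitted log2 fold change was 9.41 ± 1.27 (adjusted p = 0.000133) against AIN and 8.91 (adjusted p = 0.00206) against AINlowVitD. With 6 counts in AIN, all in AIN 3, the fitted value ranged from 4.15 to 13.82 over 18 other settings. AIN_VdrKO 2 held the least of the 3, and still more than any library of the other groups compared.

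Retnlb, the goblet cell peptide RELM-beta, which acts on Gram-negative bacteria, had 36.59, 13.57 and 36.12 CPM in AIN_VdrKO, 0.80, 4.84 and 2.17 CPM in AINlowVitD and 0.70, 0.31 and 0.69 CPM in AIN. It rose by 5.67 ± 0.75 over AIN (adjusted p = 0.000105) and by 3.46 over AINlowVitD (adjusted p = 0.0122). Cd14 had 22.09, 28.93 and 27.69 CPM in AIN_VdrKO, 4.38, 6.96 and 3.26 CPM in AINlowVitD and 5.26, 6.45 and 5.02 CPM in AIN. The AIN_VdrKO libraries stood above all 6 others, and the log2 fold changes were 2.15 ± 0.38 over AIN (adjusted p = 0.00123) and 2.35 over AINlowVitD (adjusted p = 0.00356). The calls of Lcn2, Retnlb and Cd14 against AIN held in each of 18 other settings, including each library left out.

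Reg3b and Reg3g, secreted lectins that kill bacteria, were among the most counted genes. Reg3b had 44250, 34030 and 20420 CPM in AIN_VdrKO, 1753, 5142 and 8648 CPM in AINlowVitD and 2189, 753.2 and 1980 CPM in AIN. Its mean was 32900 ± 12000 CPM in AIN_VdrKO and 1641 ± 776 CPM in AIN (SD, n = 3 each), a log2 fold change of 4.55 ± 0.96 (adjusted p = 0.00443). Reg3g had 19790, 17970 and 10650 CPM in AIN_VdrKO, 1156, 2424 and 5274 CPM in AINlowVitD and 1404, 552 and 1662 CPM in AIN, a log2 fold change over AIN of 3.84 ± 0.93 (adjusted p = 0.011). Over AINlowVitD the differences were 2.83 and 2.52 and did not pass (adjusted p = 0.0805 for Reg3b and 0.118 for Reg3g), although no library overlapped. Duoxa2, which matures the hydrogen peroxide-producing oxidase Duox2, rose by 3.05 ± 0.80, the bacterial lipopeptide receptor Tlr2 by 2.15 ± 0.61 and the acute phase protein Saa1 by 4.78 ± 1.42. These 3 genes were chosen after their values were seen. In bulk libraries, more cells of a type and more RNA per cell cannot be told apart. Without AIN 1, 5 of the 19 members passed.

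**Figure D3:**
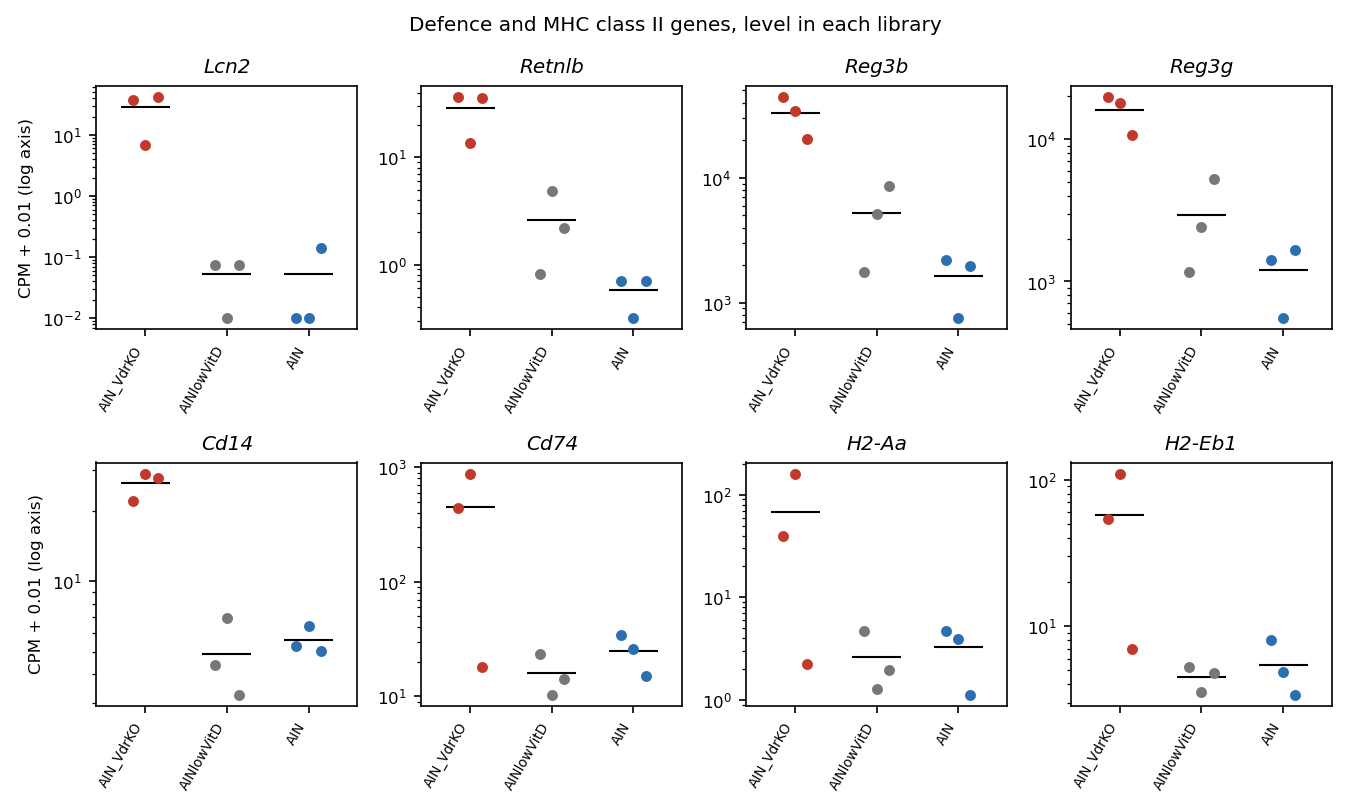
Level of 8 genes in each library, as CPM + 0.01 on log axes, for AIN_VdrKO (red), AINlowVitD (grey) and AIN (blue); horizontal bars mark group means. Lcn2, Retnlb, Reg3b, Reg3g and Cd14 are higher in all 3 AIN_VdrKO libraries, while Cd74, H2-Aa and H2-Eb1 are high in AIN_VdrKO 1 and 2 only.

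The sequences just before the start sites of Lcn2, Reg3b and Reg3g are shown because these genes rose together. A C/EBP motif was searched because Cebpb and Cebpd, whose products bind DNA, rose among the largest. Cebpb was also high in AINlowVitD (45.8, 33.48 and 46.45 CPM), where Lcn2 had 0.064, 0 and 0.064 CPM. A part of these factors in the rises was not tested. The sequences are 250 bases from RefSeq on GRCm38.p6, written 5′ to 3′ on the gene's strand. The Lcn2 region is chr2:32387740-32387989 on the minus strand, with capitals marking the 1 match, on either strand, to the C/EBP motif TTNNGCAA. Of 32851 mouse promoters of this length, 9.56% hold that motif. The Reg3b region is chr6:78370635-78370884 on the plus strand and the Reg3g region chr6:78468875-78469124 on the minus strand. Neither holds the motif, and capitals mark the longest run they share, of 20 bases.
Lcn2: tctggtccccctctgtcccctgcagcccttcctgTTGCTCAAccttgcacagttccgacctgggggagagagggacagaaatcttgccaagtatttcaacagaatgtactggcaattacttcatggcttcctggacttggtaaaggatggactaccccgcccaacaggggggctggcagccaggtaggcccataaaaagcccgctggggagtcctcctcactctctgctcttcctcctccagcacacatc
Reg3b: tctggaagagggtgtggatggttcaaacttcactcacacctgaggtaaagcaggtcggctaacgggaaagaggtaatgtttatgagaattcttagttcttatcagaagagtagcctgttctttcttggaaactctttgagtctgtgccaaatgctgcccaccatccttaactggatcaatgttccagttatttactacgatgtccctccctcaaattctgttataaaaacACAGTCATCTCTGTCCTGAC
Reg3g: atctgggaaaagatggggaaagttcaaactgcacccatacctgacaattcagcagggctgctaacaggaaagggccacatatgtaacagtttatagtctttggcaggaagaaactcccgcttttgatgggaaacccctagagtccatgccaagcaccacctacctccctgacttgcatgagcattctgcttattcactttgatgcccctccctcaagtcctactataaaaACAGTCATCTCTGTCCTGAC

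Genes of MHC class II, the proteins that show peptides to CD4 T cells, were high in 2 of the 3 AIN_VdrKO libraries. Cd74, the invariant chain that guides class II molecules, had 439.9, 883.4 and 18.04 CPM in AIN_VdrKO, 23.28, 10.35 and 14.05 CPM in AINlowVitD and 34.45, 25.89 and 14.96 CPM in AIN. AIN_VdrKO 1 and 2 were far above every other library, and AIN_VdrKO 3 lay inside the AIN range. The fitted log2 fold change over AIN was 4.39 ± 0.97 (adjusted p = 0.00606). The class II chain H2-Aa had 39.7, 161 and 2.23 CPM in AIN_VdrKO and 4.67, 3.94 and 1.12 CPM in AIN, a log2 fold change of 4.79 ± 1.098 (adjusted p = 0.00751). H2-Eb1 had 54.12, 110.3 and 6.98 CPM in AIN_VdrKO and 7.97, 4.87 and 3.39 CPM in AIN, a log2 fold change of 3.49 ± 0.79 (adjusted p = 0.00679).

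Of 15 tested genes of class II presentation, 7 rose and none fell (46.7%), with a median of 2.04. The other 4 called were H2-DMb1, H2-DMa and H2-Ab1, which chaperone or form class II molecules, and Rfxap, a factor of the class II promoter complex; they were chosen after their values were seen. Only 1 of the 15 passed without AIN 3 and 3 passed without AIN_VdrKO 2. The master activator Ciita, which has 2 identifiers in the files, did not pass under either (adjusted p = 0.105 and 0.261). Against AINlowVitD, 6 of the 15 were higher in AIN_VdrKO, where 3.07% of all genes passed. The promoters of H2-Aa (chr17:34287824-34288073, minus strand) and H2-Eb1 (chr17:34305617-34305866, plus strand) are shown because both genes were high in the same libraries. Capitals mark ATTGG, the core of the Y box of class II promoters, searched on both strands, with 1 match in H2-Aa and 2 in H2-Eb1; 33.8% of all promoters of this length hold it.
H2-Aa: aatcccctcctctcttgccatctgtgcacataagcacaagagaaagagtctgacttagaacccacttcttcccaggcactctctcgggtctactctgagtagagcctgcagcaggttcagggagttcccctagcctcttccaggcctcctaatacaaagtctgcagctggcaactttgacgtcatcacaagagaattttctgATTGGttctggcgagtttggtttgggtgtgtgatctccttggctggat
H2-Eb1: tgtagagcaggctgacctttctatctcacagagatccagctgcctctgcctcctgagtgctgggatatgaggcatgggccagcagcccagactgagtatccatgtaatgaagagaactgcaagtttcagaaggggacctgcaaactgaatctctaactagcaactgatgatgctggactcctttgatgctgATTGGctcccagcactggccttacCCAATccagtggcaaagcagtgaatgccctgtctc

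Markers of leukocytes were examined beside the class II genes, and the summed T and natural killer cell markers were high in the same libraries. The 13 tested markers of T and natural killer cells had a median log2 fold change of 1.68, and none of them passed in edgeR, where 1 had an unadjusted p under 0.05 and DESeq2 called 1 higher. Their summed level was 20.27, 25.4 and 5.38 CPM in AIN_VdrKO and 6.32, 3.58 and 4.20 CPM in AIN. The T cell receptor component Cd3e had 7, 23 and 8 counts in AIN_VdrKO and 10, 6 and 8 counts in AIN, and the pan-leukocyte marker Ptprc had 9.09, 11.48 and 3.78 CPM in AIN_VdrKO and 10.09, 6.87 and 19.17 CPM in AIN. Myeloid markers summed to 42.3 to 50.9 CPM in AIN_VdrKO and 26.7 to 42.3 CPM in AIN, and 1 of 12, Cd14, passed. Markers of B and plasma cells summed to 228.8 to 516 CPM in AIN_VdrKO and 187.8 to 513.1 CPM in AIN, and 0 of 7 passed in edgeR, with 1 at an unadjusted p under 0.05 and 1 higher in DESeq2. The macrophage receptor Csf1r had 2, 1 and 0 counts in AIN_VdrKO and 0, 2 and 0 in AIN. Stromal and endothelial markers summed to 13.4 to 16.8 CPM in AIN_VdrKO and 15.9 to 27.3 CPM in AIN, with 1 of 10 higher and 1 lower. The part of other cells in the class II values was not tested.

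Class I presentation went the other way. Of 25 tested genes 1 rose and 6 fell (28%), and the median was -0.52. Tap2, a subunit of the pump that brings peptides into the endoplasmic reticulum, fell to 3.11, 5.13 and 2.72 CPM in AIN_VdrKO, against 25.4, 23.86 and 31.32 CPM in AIN, a log2 fold change of -2.61 ± 0.39 (adjusted p = 0.0003). In AINlowVitD it had 4.57, 3.81 and 3.96 CPM, close to AIN_VdrKO. The peptide editor Tapbpl fell by 1.06 ± 0.24 on the log2 scale. Without AIN 3, 2 of the 25 passed. Of 46 interferon response genes 2 fell, Bst2 by 2.9 ± 0.60 and Ifit3 by 4.66 ± 0.96 on the log2 scale, both known as antiviral proteins. Bst2 had 6.46, 3.31 and 1.81 CPM in AIN_VdrKO, 3.10, 2.00 and 2.52 CPM in AINlowVitD and 46.07, 39.36 and 21.25 CPM in AIN. Ifit3 had 0.162, 0.218 and 0.199 CPM in AIN_VdrKO, 8.44, 2.36 and 3.07 CPM in AINlowVitD and 6.46, 19.01 and 5.10 CPM in AIN, and it was lower than in AINlowVitD too (adjusted p = 0.0398).

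The sorted cells carried the markers of crypt base stem cells in both groups. Lgr5 had 33.32, 44.89 and 23.99 CPM in AIN_VdrKO and 9.49, 24.36 and 45.3 CPM in AIN, and the groups overlapped (log2 fold change 0.22, adjusted p = 0.827). Olfm4, an abundant secreted stem cell marker, had 2742, 5504 and 2631 CPM in AIN_VdrKO and 1792, 3162 and 3558 CPM in AIN (log2 fold change -0.06, adjusted p = 0.957). Ascl2, the transcription factor that sets stem cell identity, had 75.49, 52.29 and 37.26 CPM in AIN_VdrKO and 10.73, 35.13 and 13.38 CPM in AIN, with no overlap but no call (log2 fold change 0.95, adjusted p = 0.317).

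Of 27 tested crypt base genes 5 rose and none fell (18.5%), and the median was 0.77. Msi1, an RNA-binding protein of progenitors, had 9.69, 5.66 and 12.79 CPM in AIN_VdrKO and 1.196, 1.71 and 0.62 CPM in AIN, a log2 fold change of 2.92 ± 0.51 (adjusted p = 0.00114). Znrf3, a ligase that removes Wnt receptors, rose by 1.55 ± 0.40, and Slc12a2, an ion cotransporter of crypt cells, by 1.36 ± 0.37. The transcription factor Sox9 and the BMP coreceptor Rgmb, chosen after their values were seen, rose by 1.45 ± 0.43 and 1.23 ± 0.40. Without AIN 3, 1 of the 27 passed, without AIN_VdrKO 2, 2 did, without AIN_VdrKO 3 or AIN 1, 3 did, and without AIN 2, 9 did. In the list of reserve and regenerative stem cells 4 of 14 rose and 1 fell. Lrig1, which restrains receptors of the EGF family, rose by 1.62 ± 0.37 and the RNA-binding protein Mex3a by 1.71 ± 0.44, while the keratin Krt19 fell to 774.7, 1050 and 701.1 CPM in AIN_VdrKO, against 3482, 2351 and 3338 CPM in AIN (log2 fold change -1.74 ± 0.33, adjusted p = 0.0023). Without AIN 3 the list held 1 call, Krt19.

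Among signalling lists of the crypt, the share called was 16.7% for Wnt targets, 18.8% for the BMP pathway and 4.76% for the Notch pathway. Of all genes, 12.5% passed. Of 24 Wnt targets 3 rose and 1 fell, with a median of 0.61. Among them, the transcription factor Sp5 rose by 2.36 ± 0.61 and Zfp703, a zinc finger repressor, by 1.49 ± 0.44, both without a call when AIN 3 was left out. The list held 1 call without AIN 3 or AIN_VdrKO 2, 2 without AIN_VdrKO 3 and 7 without AIN 2. The Wnt inhibitor Apcdd1 fell by 3.11 ± 0.93 on the log2 scale, at no more than 0.407 CPM in any of the 6 libraries. Of 21 Notch pathway genes 1 rose, the receptor Notch1 by 1.06 ± 0.34, and 12 of 18 other settings lost that call. Of 16 BMP pathway genes 3 rose. Smad4, the Smad shared by BMP and TGF-beta signals, had 120, 220 and 231.4 CPM in AIN_VdrKO, 94.85, 104.8 and 85.77 CPM in AINlowVitD and 41.07, 30.56 and 33.98 CPM in AIN, a log2 fold change over AIN of 2.38 ± 0.33 (adjusted p = 0.000196). All AIN_VdrKO libraries were above all AINlowVitD libraries, with a difference of 0.94 that did not pass (adjusted p = 0.118). The receptors Bmpr1a and Bmpr2 rose by 0.78 ± 0.22 and 1.42 ± 0.43. The BMP list held 5 calls without AIN_VdrKO 1 and 1 without AIN_VdrKO 3, and with limma on TPM 1 member rose and 2 fell.

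Paneth cell genes moved in both directions. Of 23 tested, 6 rose and 2 fell (34.8%), with a median of 1.39, and the summed level of the list was 86950, 91790 and 40850 CPM in AIN_VdrKO, 26250, 72800 and 36640 CPM in AINlowVitD and 12250, 10810 and 9555 CPM in AIN. In AIN_VdrKO most of that sum was Reg3b and Reg3g. Without AIN 3 the list held 4 calls. Defa21 fell to 0.040, 0.609 and 0.085 CPM in AIN_VdrKO, against 100.3, 332.2 and 85.26 CPM in AINlowVitD and 14.71, 17.05 and 14.79 CPM in AIN, a log2 fold change from AIN of -6.07 ± 1.29 (adjusted p = 0.00476). Defa20 had 1.98, 3.83 and 1.02 CPM in AIN_VdrKO, 144.7, 749.3 and 151.2 CPM in AINlowVitD and 23.98, 42.08 and 26.31 CPM in AIN, a log2 fold change from AIN of -3.49 ± 0.98 (adjusted p = 0.0245). Both were lower than in AINlowVitD as well (adjusted p = 0.002 for Defa21 and 0.00347 for Defa20). Alpha-defensin genes are near-identical copies, and reads may be shared or lost between them, so the level of a single member is uncertain.

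The markers that define Paneth cells did not pass. The lysozyme Lyz1 had 2159, 9973 and 2586 CPM in AIN_VdrKO and 1288, 2015 and 1673 CPM in AIN (adjusted p = 0.22), and the protease Mmp7, which activates defensins, had 151.4, 382.9 and 189.3 CPM in AIN_VdrKO and 112, 91.25 and 69.55 CPM in AIN (adjusted p = 0.128). All AIN_VdrKO libraries were above all AIN libraries for both, as was the case for 29% of all tested genes in one direction or the other. Of 21 goblet cell genes 2 rose and 2 fell, with a median of -0.57 and a positive log2 fold change in 6. The list summed to 9309 to 20540 CPM in AIN_VdrKO and 17280 to 36680 CPM in AIN, and the groups overlapped. The pioneer factor Foxa1 rose by 1.98 ± 0.34 and the secreted protein Clca1 by 1.94 ± 0.38, and the chemokine Ccl9 fell by 1.24 ± 0.36 on the log2 scale. The list held 2 calls without AIN_VdrKO 1 or without AIN_VdrKO 3. Of the defining goblet cell markers, the mucin Muc2 differed by 0.22 (adjusted p = 0.83) and Tff3 by -0.57 (adjusted p = 0.586). Of 30 enteroendocrine genes 2 rose, the transcription factors Insm1 by 2.11 ± 0.47 and Fev by 2.35 ± 0.71, and without AIN 3 neither passed. That list held 1 call without AIN_VdrKO 2 or AIN 1 and 4 without AIN 2, and its median was 0.1. The defining enteroendocrine markers Chga and Chgb did not pass, and all AIN_VdrKO libraries were below all AIN libraries for both. Chga had 123.5, 108.5 and 90.81 CPM in AIN_VdrKO and 243.8, 342.6 and 326.1 CPM in AIN (log2 fold change -1.06, adjusted p = 0.121). Chgb differed by -0.62 (adjusted p = 0.431). No tuft cell gene of 21 passed, with a median of -0.72. In edgeR 3 of the 21 had an unadjusted p under 0.05, and DESeq2 called 0. Trpm5, the tuft cell taste channel, had 55.86, 70.99 and 50.97 CPM in AIN_VdrKO and 132.9, 94.36 and 265.9 CPM in AIN.

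Of 37 brush border and enterocyte genes 5 fell and 1 rose (16.2%, against 12.5% of all genes), with a median of -0.94. The list summed to 5150, 17290 and 8354 CPM in AIN_VdrKO, 24150, 12560 and 29880 CPM in AINlowVitD and 33040, 26580 and 32460 CPM in AIN, and every AIN_VdrKO library was below every AIN library. The brush border protease Mep1a had 4.32, 14.7 and 9.48 CPM in AIN_VdrKO and 63.51, 32.49 and 44.27 CPM in AIN, a log2 fold change of -2.08 ± 0.48 (adjusted p = 0.00751). Fbp1, an enzyme of gluconeogenesis, had 87.08, 264.8 and 165.8 CPM in AIN_VdrKO and 1040, 688.9 and 370.1 CPM in AIN, a log2 fold change of -2.04 ± 0.58 (adjusted p = 0.0255). The actin bundler Vil1 and the motor protein Myo1a, chosen after their values were seen, fell by 1.45 and 1.58 on the log2 scale. Cdx1, a transcription factor of intestinal identity, rose by 1.57 ± 0.48. The count of members called was 1 without AIN 3 or without AIN_VdrKO 3, 2 without AIN_VdrKO 1 and 14 without AIN_VdrKO 2. The defining enterocyte markers did not pass, with the sucrase-isomaltase gene Sis at 738.3, 2475 and 900.5 CPM in AIN_VdrKO and 2858, 1733 and 3847 CPM in AIN (adjusted p = 0.556).

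Enzymes and pumps that handle foreign compounds made up the list with the largest share of falls. Of 28 tested, 10 fell and 1 rose (39.3%), with a median of -1.35. The cytochrome Cyp2c55 had 2, 8 and 46 counts in AIN_VdrKO, which is 0.081, 0.348 and 0.327 CPM, against 4.48, 0.91 and 7.57 CPM in AINlowVitD and 11.84, 11.18 and 9.26 CPM in AIN. It fell by 5.65 ± 0.91 on the log2 scale against AIN (adjusted p = 0.000616) and by 4.23 against AINlowVitD (adjusted p = 0.0118). Cyp2c65 had 16.8, 38.67 and 53.6 CPM in AIN_VdrKO, 167.3, 84.39 and 168.2 CPM in AINlowVitD and 182.6, 185.8 and 164.6 CPM in AIN, and it was lower than both (adjusted p = 0.00348 against AIN and 0.0225 against AINlowVitD). Nr1i2, the xenobiotic receptor PXR, had 14.18, 15.79 and 14.4 CPM in AIN_VdrKO and 31.98, 28.52 and 49.35 CPM in AIN, a log2 fold change of -1.23 ± 0.27 (adjusted p = 0.00587) that did not pass without AIN 3. The drug efflux pump Abcb1a fell in AIN_VdrKO to 14.26, 19.44 and 18.43 CPM, against 45.69, 35.26 and 102.2 CPM in AIN, and it was lower than in AINlowVitD (log2 fold change -3.05, adjusted p = 0.00802). Without AIN 3, 3 members of the list passed, without AIN_VdrKO 1, 5 did, and without AIN_VdrKO 3, 6 did.

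Related absorptive lists had smaller shares called than the 39.3% of the xenobiotic list. The share was 4.17% for fat absorption, 0% for bile acid handling, 15% for claudins and junctions and 14.3% for iron genes. Of all genes, 12.5% passed. Of 24 genes of fat absorption and chylomicrons 1 fell, the lipid droplet coat protein Plin2 by 1.01 ± 0.31 on the log2 scale, and leaving out any of 4 libraries lost that call. None of 9 bile acid genes passed (median -0.42) in edgeR, with 2 at an unadjusted p under 0.05 and 1 lower in DESeq2. Of 20 claudins and junction proteins 3 fell and none rose. Cdh17, an intestinal cadherin, had 145.2, 305.2 and 255.5 CPM in AIN_VdrKO, 337.2, 251.9 and 298.1 CPM in AINlowVitD and 811.9, 1080 and 2087 CPM in AIN, a log2 fold change from AIN of -2.44 ± 0.44 (adjusted p = 0.00141). Cldn15, which forms sodium-permeable channels, fell by 1.11 ± 0.33 and Cldn8 by 2.13 ± 0.65 on the log2 scale, and leaving out any of 4 libraries lost either call. The list held 1 call without AIN 3, AIN 1 or AIN_VdrKO 3 and 5 without AIN_VdrKO 2. Of 14 iron genes 2 fell, the heme oxygenase Hmox1 by 4.33 ± 1.12 and the iron regulator Hfe by 0.82 ± 0.24 on the log2 scale. Hmox1 was at most 0.162 CPM in AIN_VdrKO and AINlowVitD, against 0.792 to 1.495 CPM in AIN. Without AIN_VdrKO 3 neither iron gene passed.

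**Figure D4:**
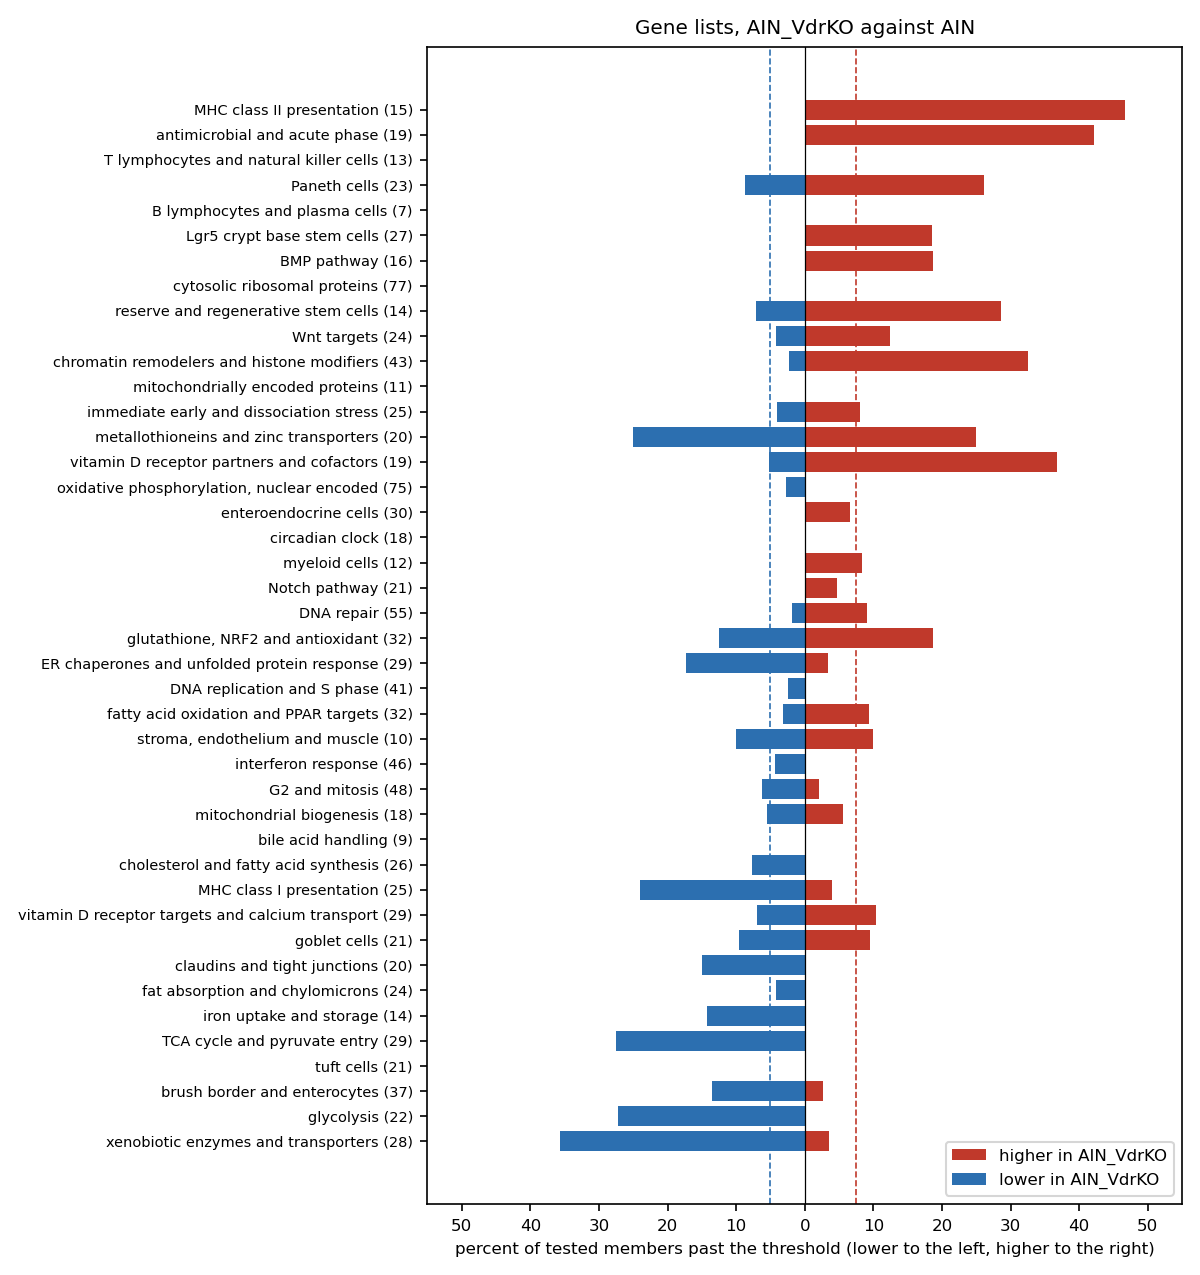
For each of 42 gene lists, the percent of tested members past the threshold, lower in AIN_VdrKO to the left (blue) and higher to the right (red), ordered by the list's median log2 fold change, with the number tested in brackets. Dashed lines mark the shares over all tested genes, 5.09% lower and 7.44% higher; class II and antimicrobial genes stand at the top and xenobiotic, glycolysis and TCA cycle genes extend to the left.

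Calls in central carbon metabolism were all falls. Of 22 glycolysis genes 6 fell and none rose (27.3%), with a median of -1.01, and the list summed to 4874, 8663 and 6675 CPM in AIN_VdrKO, 8372, 6234 and 10280 CPM in AINlowVitD and 15380, 13390 and 13610 CPM in AIN. The pyruvate kinase Pkm2 had 379.8, 557.4 and 446.4 CPM in AIN_VdrKO, 1188, 835.6 and 1502 CPM in AINlowVitD and 1506, 1422 and 1964 CPM in AIN, a log2 fold change from AIN of -1.75 ± 0.36 (adjusted p = 0.00375). Against AINlowVitD it was -1.28 (adjusted p = 0.0539). The isomerase Gpi1 fell by 1.45 ± 0.35 and the enolase Eno1 by 1.41 ± 0.39 on the log2 scale. Of 29 genes of the TCA cycle and pyruvate entry 8 fell and none rose (27.6%), with a median of -0.72. Pyruvate carboxylase, Pcx, had 5.49, 6.83 and 3.05 CPM in AIN_VdrKO and 13.88, 17.24 and 32.12 CPM in AIN, a log2 fold change of -1.98 ± 0.47 (adjusted p = 0.00982). The kinase Pdk2, which switches off pyruvate dehydrogenase, fell by 1.14 ± 0.30 and the succinate dehydrogenase subunit Sdha by 1.29 ± 0.34 on the log2 scale. Without AIN 3 the calls were 1 of 22 for glycolysis and 0 of 29 for the TCA cycle, and without AIN_VdrKO 1 they were 3 and 1. Without AIN_VdrKO 2, 4 TCA cycle genes passed. The medians stayed negative in each of these.

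Respiratory chain genes did not follow. Of 75 nuclear genes of oxidative phosphorylation 2 fell, Sdha among them, and the median was 0.11, or -0.21 with limma on TPM, -0.44 without AIN_VdrKO 1 and -0.38 without AIN 3. Their summed level was 77240, 45210 and 32970 CPM in AIN_VdrKO, 148700, 123000 and 148800 CPM in AINlowVitD and 63970, 50000 and 41850 CPM in AIN. AIN_VdrKO and AIN overlapped, and AINlowVitD lay above both. Against AINlowVitD, 35 of the 75 were lower in AIN_VdrKO, where 3.07% of all genes passed. None of 11 mitochondrially encoded genes (median 0.52) and none of 77 cytosolic ribosomal protein genes (median 0.68) passed against AIN in edgeR or DESeq2, with 1 and 0 at an unadjusted p under 0.05. The ribosomal median was 0.09 without AIN_VdrKO 1 and 0.03 without AIN 3. Ppargc1a, a coactivator that drives mitochondrial gene expression, had 20.6, 60.94 and 22.61 CPM in AIN_VdrKO and 76.95, 52.52 and 106.7 CPM in AIN (log2 fold change -0.94, adjusted p = 0.282). In the list of mitochondrial biogenesis the fusion protein Mfn2 fell by 1.88 ± 0.38 on the log2 scale and the deacetylase Sirt1 rose by 1.45 ± 0.32.

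Lipid lists held no more calls than genes at large. Of 32 genes of fatty acid oxidation and PPAR targets 3 rose and 1 fell (12.5%, the same share as of all genes). The dehydrogenase Acadl had 296.6, 439.3 and 592.2 CPM in AIN_VdrKO and 68.76, 188 and 77.59 CPM in AIN, a log2 fold change of 2.06 ± 0.45 (adjusted p = 0.00545). The thioesterases Acot1 and Acot2, which are near-identical copies, rose by 3.71 ± 1.19 and 2.41 ± 0.67, and the peroxisomal enzyme Ehhadh fell by 1.42 ± 0.40 on the log2 scale. None of the 4 passed without AIN 3, and 2 of the list passed without AIN_VdrKO 1. Of 26 genes of cholesterol and fatty acid synthesis 2 fell (7.69%), among them the sterol enzyme Nsdhl by 0.71 ± 0.22 on the log2 scale. That list held 1 call without AIN_VdrKO 1, AIN 1 or AIN 3, 4 without AIN 2 and 6 without AIN_VdrKO 3.

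Genes of glutathione and antioxidant defence moved in both directions. Of 32 tested, 6 rose and 4 fell (31.2%), and no library left out moved that count by more than 1.5 times. Tkt, the transketolase of the pentose phosphate pathway, had 69.35, 77.82 and 98.84 CPM in AIN_VdrKO, 60.28, 65.38 and 71.07 CPM in AINlowVitD and 529.5, 385.2 and 531.1 CPM in AIN. The AIN_VdrKO and AINlowVitD libraries lay together, well below AIN, and the log2 fold change from AIN was -2.65 ± 0.25 (adjusted p = 6.34e-06). Gclm, a subunit of the enzyme that starts glutathione synthesis, had 84.21, 151.6 and 112.2 CPM in AIN_VdrKO and 25.88, 43.55 and 15.03 CPM in AIN, a log2 fold change of 2.24 ± 0.37 (adjusted p = 0.000685). Pgd, another pentose phosphate enzyme, fell by 1.39 ± 0.23 on the log2 scale. The glutathione peroxidase Gpx2, chosen after its values were seen, had 2351, 932.8 and 1798 CPM in AIN_VdrKO and 471.8, 441.1 and 372.8 CPM in AIN. It was higher than in AIN by 1.70 ± 0.42 (adjusted p = 0.013) and higher than in AINlowVitD by 1.59 (adjusted p = 0.0389).

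Of 20 metallothioneins and zinc transporters 5 rose and 5 fell (50%). Mt1, which binds zinc and copper, had 1330, 648.6 and 262.4 CPM in AIN_VdrKO, 2395, 1917 and 2215 CPM in AINlowVitD and 196.1, 175.7 and 168.9 CPM in AIN, a log2 fold change over AIN of 2.35 ± 0.51 (adjusted p = 0.00526). Mt2 had 287.6, 94.09 and 5.31 CPM in AIN_VdrKO and 5.38, 13.12 and 6.95 CPM in AIN, so AIN_VdrKO 3 lay below AIN 1 while the fitted log2 fold change was 4.53 ± 0.90 (adjusted p = 0.00331). The zinc importer Slc39a1 rose by 2.00 ± 0.41 and its relative Slc39a11 fell by 1.31 ± 0.25 on the log2 scale. Without AIN 3, 4 of the 20 passed.

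Of 43 tested chromatin regulators, 14 rose and 1 fell (34.9%), with a median of 0.55, and leaving out any library moved that count by less than 1.5 times. Chd1, a remodeler of active genes, had 53.15, 54.94 and 57.66 CPM in AIN_VdrKO, 38.41, 41.77 and 42.2 CPM in AINlowVitD and 12.54, 15.2 and 16.32 CPM in AIN, a log2 fold change over AIN of 1.98 ± 0.22 (adjusted p = 1.96e-05). Over AINlowVitD it was 0.51 (adjusted p = 0.199). Kdm6b, a histone demethylase, had 24.31, 28.62 and 24.54 CPM in AIN_VdrKO, 48.87, 37.41 and 45.74 CPM in AINlowVitD and 6.66, 7.90 and 4.95 CPM in AIN, a log2 fold change over AIN of 2.14 ± 0.31 (adjusted p = 0.000266). The remodeler Smarca5 rose by 2.02 ± 0.32. With limma on TPM 6 of the 43 rose and 1 fell. Against AINlowVitD the median of the list was 0.21.

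Among the remaining lists, 5 of 29 endoplasmic reticulum chaperone and unfolded protein response genes fell and 1 rose, with Pdia3, Pdia4 and Calr, which fold secreted proteins, falling by 2.60, 1.09 and 0.90 on the log2 scale. Without AIN 3, 1 of the 29 passed, without AIN_VdrKO 3, 2 did, and without AIN_VdrKO 2, 3 did. Of 25 immediate early genes the transcription factor subunit Jund rose by 2.99 ± 0.73 and the signalling inhibitor Socs3 by 2.99 ± 0.87, while the antiproliferative gene Btg2 fell by 1.15 ± 0.33 on the log2 scale. Of 41 S phase genes 1 fell, the polymerase subunit Pold1. Of 48 genes of G2 and mitosis 1 rose and 3 fell, with the proliferation marker Mki67 at 167.5, 156.5 and 203.6 CPM in AIN_VdrKO and 80.28, 82.59 and 102.2 CPM in AIN (log2 fold change 0.94 ± 0.28, adjusted p = 0.0321), a call that 12 of 18 other settings lost. The phosphatase Cdc25b, which starts mitosis, fell by 1.32 ± 0.28 on the log2 scale. Of 55 DNA repair genes 5 rose and 1 fell (10.9%, under the 12.5% of all genes), among them the damage-recognition factor Xpa, which rose by 2.38 ± 0.46. The repair list held 2 calls without AIN_VdrKO 3 or AIN 1 and 3 without AIN_VdrKO 1 or AIN 3. None of 18 circadian clock genes passed in edgeR, where 2 had an unadjusted p under 0.05 and DESeq2 called 1 lower.

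The largest rises past the threshold, taken from genes whose 2 groups did not overlap and whose log2 CPM averaged 2 or more, began with Cebpb, a transcription factor of acute phase and inflammatory genes. It had 25.4, 34.19 and 26.1 CPM in AIN_VdrKO, 45.8, 33.48 and 46.45 CPM in AINlowVitD and 0.538, 1.23 and 0.343 CPM in AIN. The AIN_VdrKO libraries were far above AIN and around or below AINlowVitD, with log2 fold changes of 5.401 ± 0.57 over AIN (adjusted p = 1.17e-05) and -0.48 over AINlowVitD (adjusted p = 0.595). Its relative Cebpd rose by 3.83, the GATA cofactor Zfpm1 by 4.53, the kinase Dapk3 by 4.12, the progenitor transcription factor Sox4 by 3.63, the sorting nexin Snx20 by 3.57 and the adhesion protein Ceacam10 by 3.70. Ceacam10 had 119.2, 135.6 and 8.21 CPM in AIN_VdrKO and 3.61, 6.05 and 6.95 CPM in AIN, so AIN_VdrKO 3 stood only just above AIN. Reg3b, Reg3g and Acot1, described above, also belong to this set. Pla2g5, a secreted phospholipase, had 23.38, 35.63 and 93.99 CPM in AIN_VdrKO, 2.72, 9.32 and 2.04 CPM in AINlowVitD and 2.25, 3.48 and 3.60 CPM in AIN. It rose by 4.07 over AIN and was the only one of these 12 that differed from AINlowVitD past the threshold. NWD1, a group without the knockout label, had 28.99, 23.28 and 28.64 CPM of Pla2g5, near AIN_VdrKO 1 and 2.

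The largest falls began with Insl6, an insulin-like peptide known from the testis. It had 1.17, 0.827 and 0.910 CPM in AIN_VdrKO, 72.21, 50.43 and 98.29 CPM in AINlowVitD and 33.91, 28.12 and 18.82 CPM in AIN, a log2 fold change from AIN of -4.86. Dio1, a deiodinase that converts thyroid hormone, had 0.646, 4.39 and 4.76 CPM in AIN_VdrKO, 59.61, 37.11 and 69.38 CPM in AINlowVitD and 133.1, 89.58 and 63.29 CPM in AIN, a log2 fold change from AIN of -4.63. For both, all AIN_VdrKO libraries were below the libraries of all 6 other groups. Akp3, an intestinal alkaline phosphatase of the brush border, had 6.79, 14.66 and 19.48 CPM in AIN_VdrKO, 109.8, 81.54 and 182.5 CPM in AINlowVitD and 121.5, 518.4 and 371.4 CPM in AIN, a log2 fold change from AIN of -4.31 that did not pass without AIN 3.

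For other large falls AINlowVitD was also below AIN. Arpc3, a subunit of the Arp2/3 complex that nucleates actin, had 31.42, 27.27 and 15.12 CPM in AIN_VdrKO, 23.35, 19.49 and 24.66 CPM in AINlowVitD and 300.8, 215.2 and 160.7 CPM in AIN, a log2 fold change from AIN of -3.21. Ilvbl, an acetolactate synthase-like enzyme, had 7.35, 15.31 and 12.1 CPM in AIN_VdrKO, 11.42, 7.87 and 8.91 CPM in AINlowVitD and 154.6, 101.7 and 142.1 CPM in AIN, a log2 fold change from AIN of -3.38. The secretory pathway proteins Tmed9 and Trappc3 fell by 3.70 and 3.84 on the log2 scale, the aldehyde dehydrogenase Aldh2 by 3.14, the complement factor Cfb by 3.05 and the membrane protein Lmbr1l by 3.26. Across all 7 groups, Arpc3 and Ilvbl were low in AIN_VdrKO, AINlowVitD, NWD1Ca and NWD1VitD and high in NWD1, NWD2 and AIN, and Cebpb and Dapk3 had the opposite pattern. That is the separation of libraries seen on the first principal component, and its part in these differences from AIN cannot be told apart from that of the genotype.

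**Figure D5:**
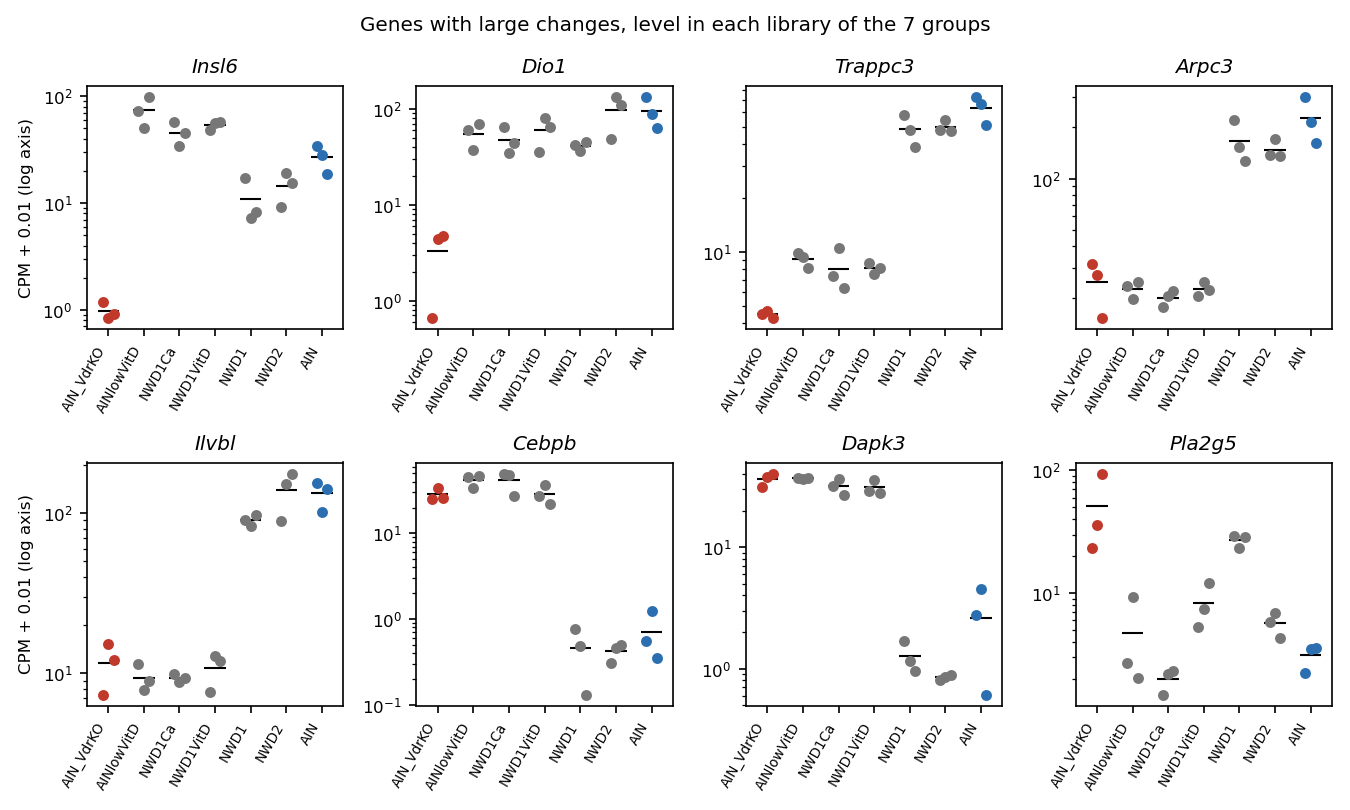
Level of 8 genes in each library of the 7 groups, as CPM + 0.01 on log axes, with AIN_VdrKO in red, AIN in blue, the other groups in grey and bars at group means. Insl6 and Dio1 are lowest and the mean of Pla2g5 is highest in the AIN_VdrKO group, while Arpc3, Ilvbl, Cebpb and Dapk3 in AIN_VdrKO lie with AINlowVitD, NWD1Ca and NWD1VitD.

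Set against AINlowVitD, AIN_VdrKO differed in 492 of 16050 genes (3.07%), 110 higher and 382 lower. This contrast uses the same AIN_VdrKO libraries as the one above, and the spike-ins differed in it too, so it is given as values only. Genes that passed against AINlowVitD included Lcn2, Retnlb, Cd14, Duoxa2, Pla2g5, Cd74, H2-Aa and H2-Eb1 on the higher side. On the lower side they included Insl6, Dio1, Trappc3, Defa20, Defa21, Cyp2c55, Cyp2c65, Abcb1a, Ifit3 and S100g. Many genes given above without AINlowVitD values differed from AIN in the same direction in AINlowVitD, past the threshold. The rises among them included Gclm, Msi1, Insm1, Fev, Mt2, Slc39a1, Jund, Xpa, Foxa1 and Smarca5. Sp5, Zfp703, Bmpr1a, Bmpr2, Acot2 and Sirt1 also rose. The falls included Pcx, Pdk2, Sdha, Mfn2, Ehhadh, Nsdhl, Pdia4, Calr and Tapbpl. Pgd, Slc39a11, Cldn8, Hfe, Cdc25b and Pold1 also fell. Others did not pass there, among them Gpi1, Eno1, Mep1a, Fbp1 and Acadl. None of these named genes passed between AIN_VdrKO and AINlowVitD. Of the lists described above, class II had 6 of 15 members past the threshold against AINlowVitD in edgeR, antimicrobial genes 4 of 19 and xenobiotic genes 5 of 28. Receptor cofactors had 0 of 19, chromatin regulators 0 of 43, zinc genes 0 of 20, glycolysis 0 of 22 and the TCA cycle 0 of 29. At an unadjusted p under 0.05 these 5 lists held 4, 5, 3, 4 and 0 genes.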

How the data were processed

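RNA of sorted intestinal Lgr5 cells from 21 mice in 7 groups of 3 was sequenced, with SMART-Seq v4 amplification and Nextera XT libraries per the labels' protocols. The authors deposited whole-number read counts per gene, and TPM values that equal each count divided by 1 length per gene and rescaled (largest SD of the log2 ratio 5.9e-10 over 6979 genes). STAR 2.4.2a, HTSeq 0.6.1, edgeR and mm9 are named per the submitters' processing notes; their roles are not stated in the sources read here. The library kits do not mark strand, so overlapping antisense genes cannot be told apart.

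Columns were matched to groups by their names, and 0 per-sample columns were left unmapped. Counts were fitted with edgeR 4.0.16 in R 4.3.3 by the quasi-likelihood test, with filterByExpr and TMM scaling, on all 21 libraries with a term for sex. Adjusted p-values are Benjamini-Hochberg values of that edgeR fit over the 16050 tested genes, and the threshold is 0.05. Each log2 fold change is AIN_VdrKO minus the other group, or AINlowVitD minus AIN where those groups are compared. Each SE was derived from the test, as the absolute log2 fold change divided by the square root of the F statistic. CPM are counts scaled to a library's gene total multiplied by its TMM factor. That factor was 1 to 1.22 in AIN_VdrKO, 1.01 to 1.09 in AIN and 0.709 to 0.831 in AINlowVitD. Alternatives used DESeq2 1.42.0, limma 3.58.1 on log2(TPM + 1) or log2(TPM + 0.1), other scalings, filters and covariates, and each library left out. The 92 spike-ins were left out of library sizes and gene tests, and scripts were tested on simulated data.

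Named genes are Vdr, Cyp24a1, Trpv6, S100g, Atp2b1, Cldn2, Slc30a10, Lgr5, Ascl2, Olfm4 and Ppargc1a whatever their values, the 12 largest rises and 12 largest falls among genes whose groups did not overlap and whose log2 CPM averaged 2 or more, and up to 3 called genes of each list with the smallest p. Any other gene is marked as picked once its values were known. Members and lists were chosen with earlier results of these data known. Nothing in the labels states that libraries of a group were independent beyond being separate samples, so p-values measure the spread between these samples, which may be technical. Intervals and floors cover counting error only. Levels of near-identical copies (Defa, Reg3, H2, Mt1 and Mt2, Cyp2c, Acot1 and Acot2) are uncertain. Promoters came from RefSeq on GRCm38.p6, and no coordinate was taken from the deposited files. A few genes that these rules would name are not reported here.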

Additional observations from a re-analysis of the deposited data

How the results depend on the processing

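Of the 2011 genes past the threshold, the count became 903 with only the 6 libraries and no sex term, 1336 with limma on log2(TPM + 0.1), 1026 with limma on log2(TPM + 1) and no filter, and between 992 (without AIN 3) and 2654 (without AIN 2) when 1 library was left out. It stayed within 1.5 times in the other settings, from 1350 with limma on log2(TPM + 1) to 2990 with DESeq2. The share of higher genes was 59.4% in the reported fit, 69.3% with only the 6 libraries and 49.8% with a gene length offset. Of 106 named genes past the threshold, 42 passed in all 18 other settings, 53 were lost when some 1 library was left out and 46 were lost without AIN 3. Genes that did not pass changed sign. Lgr5 was at -0.004 with a gene length offset, -0.0509 with the replicate block and that offset and -0.3612 among males alone, and ranged from -0.0356 to 1.0113 with 1 library left out. Olfm4 was at 0.4192 with only the 6 libraries, 0.3536 with no sex term, 0.0304 with a gene length offset and 0.0631 among males alone, and ranged from -0.4951 to 0.1448 with 1 library left out. Vdr ranged from -0.8861 to 0.1252. The fit among males alone leaves AIN with the lone library AIN 3, which is assumed to vary like the libraries of the other groups, so its calls are not read as an effect of sex. The cause of these changes was not tested. Whether replicate numbers mark a shared preparation was not tested. The correlation of deviations between libraries of the same number was 0.309, -0.0836 and 0.24. It was -0.294 between AIN_VdrKO 1 and AIN 3 and -0.329 between AIN_VdrKO 3 and AIN 1. AIN_VdrKO 1 and 3, but not 2, correlated best with their own number. The fit with the replicate number as a block called 2073 genes (1228 higher, 845 lower). Of the list counts over the settings, 496 stayed within 1.5 times and 260 moved. With 3 libraries a group, genes at few counts gave wide intervals, and a difference in Trpv6 or Cyp24a1 was not detectable at this depth.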

Other observations

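Some large differences fell outside the rule for named genes and were chosen after their values were seen. Aldh8a1, an aldehyde dehydrogenase of retinoid and tryptophan metabolism, had 10.3, 8.66 and 13.4 CPM in AIN_VdrKO and 0.359, 0.158 and 0.172 CPM in AIN. Its pooled counts were 2343 in AIN_VdrKO and 41 in AIN, a scaled ratio of 58.1 (95% counting interval 42.7 to 81.2). The fitted log2 fold change was 5.71 ± 0.99 (adjusted p = 0.00114), and against AINlowVitD it was 6.45 (adjusted p = 0.00338). H2-Bl, a class I related gene, had 81.9, 243.4 and 0.661 CPM in AIN_VdrKO and 2.65, 2.92 and 2.49 CPM in AIN, high in AIN_VdrKO 1 and 2 as the class II genes were (adjusted p = 0.00939).

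Slpi, a protease inhibitor of mucosal secretions, had 294 counts over the AIN_VdrKO libraries and 0 over the AIN libraries, at least 99.6-fold higher against a floor of 3 counts over the group. The predicted gene Gm14446 had 0 counts in all AIN_VdrKO libraries and 5811 over the AIN libraries, at least 1910-fold lower against the same floor (adjusted p = 4e-05).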
